A study of Mus musculus with 6 samples.

Results

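The genes described here are Trp53, which encodes the transcription factor p53, and 9 genes that p53 binds and activates directly. The 9 targets are Mdm2, Mdm4, Cdkn1a, Ccng1, Sesn1, Sesn2, Zmat3, Trp53inp1 and Phlda3. They were taken by name as a list of known targets and make up 10 of the 24736 genes measured. All 10 were found in the table and passed the filter on low counts. Poly(A) RNA was sequenced from wild-type mouse embryonic stem cells (ESCs, 0 h) and from epiblast-like cells (EpiLCs, 48 h of differentiation), with 3 libraries of each that the labels call biological replicates. The wild-type line of both groups was HM1 TetON, which is XY, so all 6 libraries share 1 genetic background. ESCs were grown on mitotically inactivated fibroblast feeders in knockout DMEM with 10% serum and 1000 U/ml LIF, the cytokine that maintains self-renewal. For EpiLCs, feeders were removed by adhesion and the cells were moved to serum-free N2/B27 medium that held bFGF at 10 ng/ml and LGK974, an inhibitor of WNT secretion, at 5 µM. The effects of time, serum, feeders, LIF, bFGF and LGK974 cannot be told apart in this design, and nothing in it damages DNA or removes p53.

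p53 is kept scarce in unstressed cells because Mdm2, a ubiquitin ligase, marks it for destruction, while the related Mdm4 blocks its activity. DNA damage or ribosomal stress frees p53 from these inhibitors, and p53 then switches on genes for cell cycle arrest, apoptosis, DNA repair and metabolic restraint, and Mdm2 itself, which closes a negative feedback loop. Mouse ESCs are known for holding abundant p53, much of it outside the nucleus, and for dividing with hardly any G1 checkpoint. mRNA reports neither the amount of p53 protein nor its activity, both of which are set largely after transcription.

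p53 binds as a tetramer to a pair of half-sites of 10 letters each. Promoter windows of 300 bases (250 before to 50 after a transcript start) were taken from RefSeq on GRCm38.p6, the assembly also called mm10, and read on both strands. The table of windows held 11 for 8 of the genes, and none was matched for Trp53inp1 and Zmat3. An exact match to the p53 half-site was found in 5 of these 11 windows, 1 for each of 5 genes, against 8.36% of all 32851 windows. The match of each gene is shown with its flanks because the promoters can be compared directly in this way. Each runs 5′ to 3′ on the strand of its gene, and capitals mark the half-site.
Trp53 (chr11:69580274-69580303, + strand): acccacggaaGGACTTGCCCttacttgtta
Mdm2 (chr10:117710925-117710954, - strand): agtcggatagGAACTTGCCTagcgaccatt
Ccng1 (chr11:40755452-40755481, - strand): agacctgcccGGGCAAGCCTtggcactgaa
Sesn1 (chr10:41887256-41887285, + strand): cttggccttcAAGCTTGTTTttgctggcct
Cdkn1a (chr17:29090906-29090937, + strand): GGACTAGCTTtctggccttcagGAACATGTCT
Counted from the transcript start, the half-sites began at position -75 in Trp53, -186 in Mdm2 and -185 in Ccng1. They began at -173 in Sesn1 (at the downstream of its starts) and at -73 and -51 in Cdkn1a (at the upstream of its starts). Cdkn1a was the only gene of the 8 with a pair of half-sites at most 13 bases apart, with a spacer of 12 bases, and such a pair was found in 0.0731% of all windows. The windows of Mdm4, Sesn2 and Phlda3, and that of a further start of Cdkn1a, held no exact match.

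An exact pair with no spacer was found in 0.00913% of all windows, and in the window of none of the 8 genes. When 1 letter outside the pattern was allowed, a choice made after the exact matches were seen, adjacent pairs were found in Cdkn1a and Ccng1, against 0.0883% of all windows. Both are shown because they extend the matches above, with all letters of the pair in capitals.
Cdkn1a (chr17:29090928-29090947, + strand): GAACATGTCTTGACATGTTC
Ccng1 (chr11:40755462-40755481, - strand): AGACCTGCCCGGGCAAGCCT
These matches describe the letters in the windows and are not evidence of binding in these cells. Sites of known targets often lie in introns or farther upstream, outside these windows.

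Libraries held between 16967741 (ESC replicate 2) and 35096210 (EpiLC replicate 1) expected counts, and 3 counts correspond to between 0.0855 and 0.177 CPM (counts scaled to library size), for counting error only. All 9 naive pluripotency genes of a fixed list (Nanog, Esrrb, Klf4 and others) were lower in EpiLCs and all 7 formative genes (Pou3f1, Otx2, Fgf5 and others) were higher. RNA of fibroblasts, the feeder cell type, was unequal among ESC libraries. Summed over 14 fibroblast markers, TPM reached 2183 in ESC replicate 2, against 437 in replicate 1 and 158 in replicate 3, and was between 94.9 and 106 in EpiLCs. Acta2 and Thy1 made up much of the EpiLC sums, and Lox (1.21, 7.67 and 0.49 TPM in EpiLC replicates 1, 2 and 3) and Col1a2 (4.24, 14.7 and 2.23 TPM) differed between EpiLC libraries. All 14 markers were ordered replicate 2, 1, 3 among the ESC libraries, and the only marker at 0 in an ESC library was Lum, in replicate 3. Fold changes of the 10 genes that move by much without ESC replicate 2 are therefore also given without it. Markers of primitive endoderm, a cell type that ESC cultures can hold, summed to 56.1, 42.2 and 32.4 TPM in the ESC libraries and between 10.1 and 10.5 TPM in the EpiLC libraries, and 4 of the 6 were called lower. None of the 6 was at 0 in any library, and their part in the differences below was not tested. In bulk RNA, fewer cells of a type and less RNA per cell cannot be told apart.

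Between ESCs and EpiLCs, Trp53 and Mdm4 fell, Ccng1 and Sesn1 rose, and the other 6 genes did not pass the test. By edgeR's quasi-likelihood test with Benjamini-Hochberg adjustment over the 14468 genes tested, 4 of the 10 genes were called (adjusted p not above 0.05), near the 45.4% of all genes tested. The calls were 2 higher in EpiLCs (22.6% of all genes tested) and 2 lower (22.8% of all genes tested). No fitted fold change of the 10 exceeded 1 on the log2 scale, with a range from -0.72 to 0.84, whereas 20.2% of all genes tested were called with a larger change. The 95% intervals of Mdm4, Cdkn1a, Ccng1, Sesn1 and Phlda3 reached beyond 1 in size. TPM of the groups did not overlap for 4 of the 10 genes, against 59.5% of all genes tested. The median log2 fold change of the 10 was 0.15, beside -0.0017 over all genes tested.

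**Figure D1:**
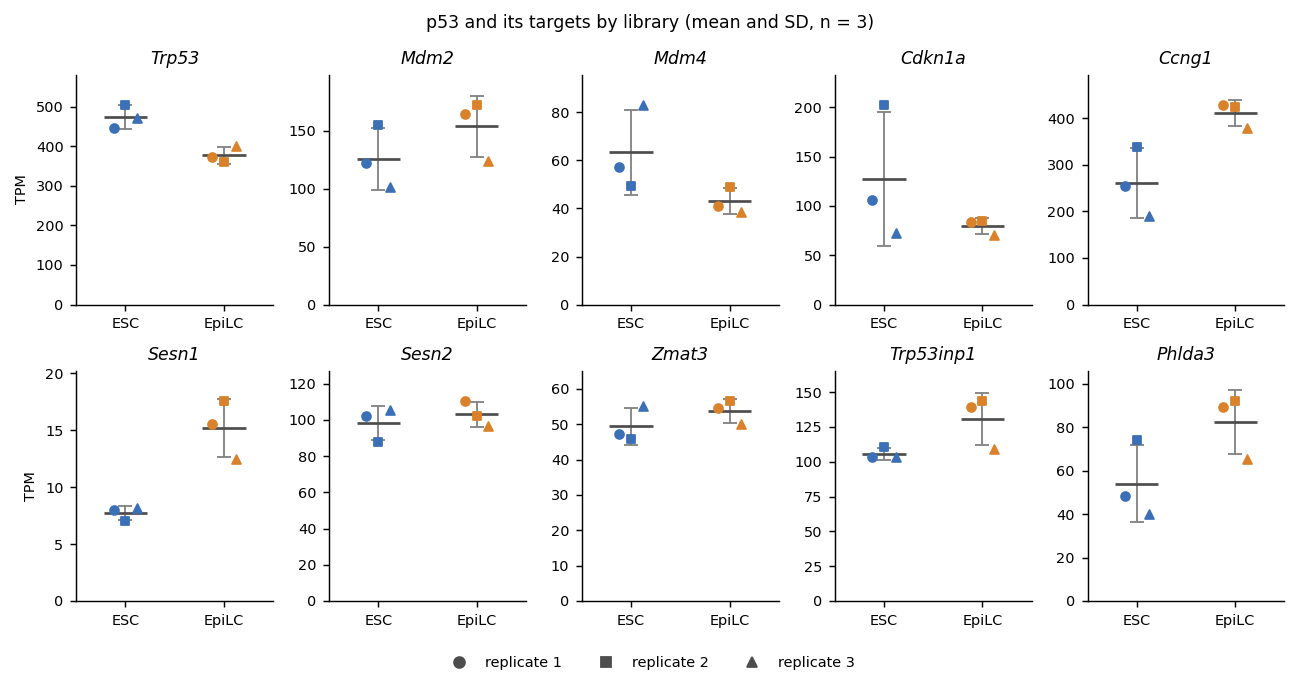
TPM (transcript abundance scaled for length and library, linear axis from 0) of Trp53 and 9 targets in each library, with ESCs in blue, EpiLCs in orange and the marker shape giving the replicate number. Horizontal lines and bars give the mean and SD of 3 libraries. Sesn1, Ccng1, Trp53 and Mdm4 are the genes without overlap between groups, and the ESC libraries of Cdkn1a run from 72.3 to 203 TPM, the widest of the 10 as a ratio (2.80).

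Levels are compared between genes in TPM, which is scaled for transcript length. Trp53 ranked 291 of 24736 genes by mean TPM in ESCs and 403 in EpiLCs, so its mRNA was among the more abundant in both. In ESCs, Trp53 was highest of the 10, above Ccng1 in every library. Below Ccng1 came Cdkn1a, Mdm2, Trp53inp1 and Sesn2, in an order in which neighbours overlapped between libraries. Mdm4, Phlda3 and Zmat3 followed with overlapping levels that were all below those of Sesn2, and Sesn1 was lowest. In EpiLCs, Ccng1 and Trp53 overlapped at the top, and Mdm2, Trp53inp1 and Sesn2 followed with overlap between neighbours. Phlda3 and Cdkn1a overlapped below Sesn2, and Zmat3, Mdm4 and Sesn1 came last without overlap between neighbours. Mdm4 moved from rank 2740 in ESCs to rank 3819 in EpiLCs, whereas Phlda3 moved from 3154 to 2131 and Sesn1 from 9165 to 7184. Cdkn1a ranked 1335 in ESCs and 2197 in EpiLCs, but its ESC rank rested on ESC replicate 2. Without that library its ESC mean was 89.3 TPM, at rank 1923 and below Mdm2, Sesn2 and Trp53inp1, and Phlda3 ranked 3698.

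Trp53 lies at chr11:69580348-69591873 on the + strand. Its TPM in the ESC libraries, given in the order of replicates 1, 2 and 3 here and throughout, was 445, 505 and 470.2, and in the EpiLC libraries 372, 359 and 399. Every ESC library was above every EpiLC library, with means of 473 ± 30.3 and 377 ± 20.7 (SD, n = 3 each). Trp53 mRNA was 1.3-fold higher in ESCs, a log2 fold change from ESC to EpiLC of -0.38 (SE 0.07, 95% interval -0.56 to -0.21, edgeR adjusted p = 0.00633). The call held under all 13 alternatives, with log2 fold changes from -0.44 to -0.33. ESC replicate 2 was highest in Trp53, and without it the log2 fold change was -0.34 (edgeR adjusted p = 0.00999). The pseudogene Trp53-ps was not analysed here, and reads that it shares with Trp53 cannot be told apart from reads of Trp53. Wrap53, the neighbouring gene, did not pass the test (log2 fold change -0.13, edgeR adjusted p = 0.344).

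Mdm2 and Mdm4, the inhibitors of p53, had fold changes of opposite sign, but only that of Mdm4 passed the test. Mdm2 (chr10:117688875-117710758, - strand) is both the main ubiquitin ligase for p53 and its target. Mdm2 TPM was 122, 155 and 101 in the ESC libraries and 164, 172 and 124 in the EpiLC libraries. The groups overlapped, since ESC replicate 2 was above EpiLC replicate 3. The log2 fold change was 0.24 (SE 0.17, 95% interval -0.17 to 0.65, edgeR adjusted p = 0.296). Without ESC replicate 2 it was 0.41 (95% interval 0.06 to 0.76, edgeR adjusted p = 0.0537).

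Mdm4 (chr1:132986105-133030587, - strand) binds the activation domain of p53 without marking it for destruction, and pairs with Mdm2. It overlaps the pseudogene Gm29257 over 677 bases and the lncRNA Gm41953 over 3855 bases, which were not analysed here. Mdm4 TPM was 57.4, 49.3 and 83.3 in the ESC libraries and 41.2, 49.1 and 38.7 in the EpiLC libraries. The groups did not overlap, but ESC replicate 2 and EpiLC replicate 2 were nearly equal, and ESC replicate 3 was well above the other ESC libraries. Means were 63.4 ± 17.7 and 43.0 ± 5.43 (SD, n = 3 each), and Mdm4 was 1.53-fold higher in ESCs, a log2 fold change of -0.62 (SE 0.20, 95% interval -1.09 to -0.14, edgeR adjusted p = 0.0414). This call was lost under 8 of the 13 alternatives. Without ESC replicate 1 the edgeR adjusted p was 0.0598, and without EpiLC replicate 1, 2 or 3 it was 0.123, 0.0639 and 0.129. Without ESC replicate 3 the log2 fold change was -0.35, and without ESC replicate 2 it was -0.77 (edgeR adjusted p = 0.0106).

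Cdkn1a and Ccng1 encode cell cycle regulators. Cdkn1a (chr17:29090979-29100722, + strand) encodes p21, the inhibitor of cyclin-dependent kinases through which p53 arrests the cycle. Cdkn1a TPM was 106, 203 and 72.3 in the ESC libraries and 84.1, 84.8 and 70.5 in the EpiLC libraries. ESC replicate 2 was 2.80 times ESC replicate 3, while the EpiLC libraries lay within 1.20 times of each other and overlapped ESC replicate 3. The log2 fold change was -0.72 (SE 0.34, 95% interval -1.52 to 0.08, edgeR adjusted p = 0.123), the lowest value among the 10 and not called. Without ESC replicate 2 it was -0.22 (95% interval -0.60 to 0.17, edgeR adjusted p = 0.301). Without ESC replicate 3 it was -0.99 and passed the test (edgeR adjusted p = 0.0197). The value for Cdkn1a therefore depended on which ESC library was in the fit.

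Ccng1 (chr11:40748552-40755309, - strand) encodes cyclin G1, which recruits a phosphatase to Mdm2 and is counted among the inhibitors of p53. Ccng1 TPM was 254, 338 and 190 in the ESC libraries and 429, 423 and 378 in the EpiLC libraries. Every EpiLC library was above every ESC library, with means of 410 ± 27.8 and 261 ± 74.7 (SD, n = 3 each). Ccng1 was 1.52-fold higher in EpiLCs (log2 fold change 0.61, SE 0.19, 95% interval 0.16 to 1.05, edgeR adjusted p = 0.0359). Without ESC replicate 2, the ESC library nearest to the EpiLCs, the log2 fold change was 0.84 (edgeR adjusted p = 0.00233). The call was lost without ESC replicate 1 (edgeR adjusted p = 0.0992) and without EpiLC replicate 1, 2 or 3 (edgeR adjusted p = 0.102, 0.0899 and 0.0673). In these 4 fits the log2 fold change stayed between 0.57 and 0.66, and without ESC replicate 3 it was 0.43.

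The sestrins Sesn1 and Sesn2 encode stress-inducible proteins that restrain mTORC1, the kinase complex that promotes growth, and limit oxidative damage. Sesn1 (chr10:41810574-41908436, + strand) had the largest fold change of the 10 genes with all 6 libraries, although without ESC replicate 2 the log2 fold changes of Phlda3 (0.85) and Ccng1 (0.84) were larger, as was that of Cdkn1a in size without ESC replicate 3 (-0.99). Sesn1 TPM was 8.03, 6.99 and 8.16 in the ESC libraries and 15.5, 17.6 and 12.5 in the EpiLC libraries, so that every EpiLC library was above every ESC library. Means were 7.73 ± 0.641 and 15.2 ± 2.56 (SD, n = 3 each). On the scale of counts, which is not adjusted for transcript length, Sesn1 was 1.79-fold higher in EpiLCs (log2 fold change 0.84, SE 0.14, 95% interval 0.50 to 1.18, edgeR adjusted p = 0.00378). The call held under all 13 alternatives, with log2 fold changes from 0.75 to 0.96. ESC replicate 2 was the lowest ESC library for Sesn1, and without it the log2 fold change was 0.79.

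Sesn2 (chr4:132492804-132510456, - strand) was more abundant than Sesn1 in every library. Sesn2 TPM was 102, 87.7 and 106 in the ESC libraries and 110.5, 102 and 96.6 in the EpiLC libraries, with overlap between groups. Its log2 fold change was 0.01 (SE 0.09, 95% interval -0.20 to 0.23, edgeR adjusted p = 0.912). The interval for Sesn2 ended below the interval for Sesn1, although the difference between them was not itself tested. Sesn3, a family member outside the 10 genes, rose from 18.7, 18.7 and 18.8 TPM in the ESC libraries to 42.7, 37.3 and 36.5 in the EpiLC libraries (log2 fold change 1.00, edgeR adjusted p = 3.47e-04).

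Zmat3, Trp53inp1 and Phlda3 act in RNA processing, cell death and kinase signalling. None of the 3 passed edgeR's test after adjustment, whereas Trp53inp1 and Phlda3 had an unadjusted p under 0.05 and DESeq2 called Phlda3. Zmat3 (chr3:32334792-32365665, - strand) encodes an RNA-binding zinc finger protein that alters splicing and RNA stability. Zmat3 TPM was 47.1, 45.7 and 55.3 in the ESC libraries and 54.5, 56.6 and 49.9 in the EpiLC libraries, with overlap between groups. The log2 fold change of Zmat3 was 0.07 (SE 0.09, 95% interval -0.15 to 0.28, edgeR adjusted p = 0.582). Its start overlaps the lncRNA 4930429B21Rik over 177 bases, and reads from there may be divided between them. Trp53inp1 (chr4:11156441-11174379, + strand) encodes a stress-induced nuclear protein that promotes p53-dependent cell death and autophagy. Trp53inp1 TPM was 103, 111 and 104 in the ESC libraries and 139, 144 and 109 in the EpiLC libraries, where replicate 3 lay within the ESC range. Its log2 fold change was 0.25 (SE 0.10, 95% interval 0.01 to 0.49, edgeR adjusted p = 0.0803), and without EpiLC replicate 3 it was 0.36 and passed the test (edgeR adjusted p = 0.00958).

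Phlda3 (chr1:135766085-135769134, + strand) encodes a small protein that competes with the survival kinase Akt for membrane lipids. Phlda3 TPM was 48.1, 74.0 and 39.9 in the ESC libraries and 89.3, 92.2 and 65.5 in the EpiLC libraries. The groups overlapped only because ESC replicate 2 was above EpiLC replicate 3. The log2 fold change was 0.56 (SE 0.24, 95% interval 0.003 to 1.12, edgeR adjusted p = 0.0909), and without ESC replicate 2 it was 0.85 and passed the test (edgeR adjusted p = 0.00632). On all 6 libraries DESeq2 called it (log2 fold change 0.55, DESeq2 adjusted p = 0.0446).

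**Figure D2:**
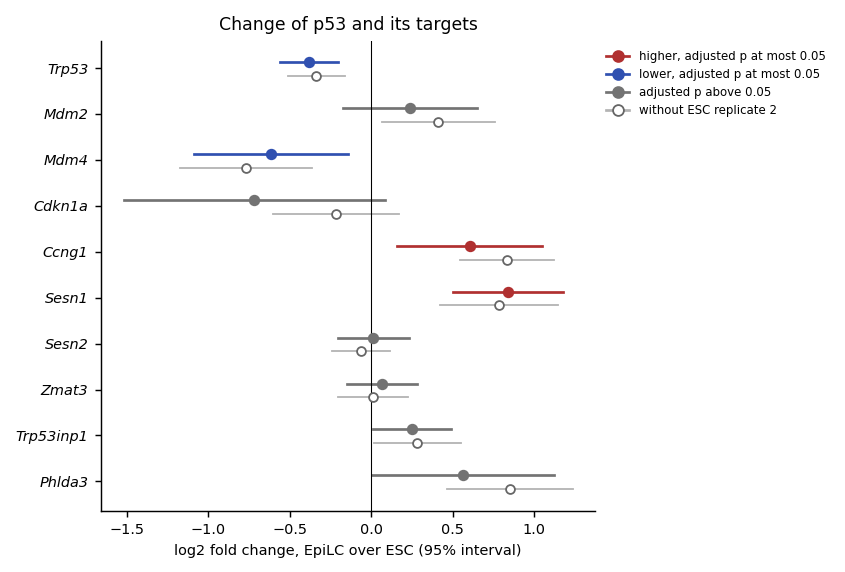
Log2 fold change from ESC to EpiLC of Trp53 and 9 targets with 95% intervals, from all 6 libraries (filled points, red higher, blue lower, grey not called) and without ESC replicate 2 (open points). Sesn1 and Trp53 move little without that library, whereas Cdkn1a moves from -0.72 to -0.22 and Phlda3 from 0.56 to 0.85.

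Without ESC replicate 2, 3 of the 10 genes were higher in EpiLCs (Ccng1, Sesn1 and Phlda3) and 2 were lower (Trp53 and Mdm4), where 48.8% of the genes tested were called. The ESC order seen for fibroblast RNA, replicate 2 above 1 above 3, was shared by 4 of the 10 genes, Mdm2, Cdkn1a, Ccng1 and Phlda3, and by 26.1% of all genes tested. In these 4 genes the highest ESC library was between 1.52 and 2.80 times the lowest. Zmat3, Sesn1, Sesn2 and Mdm4 had the order 3, 1, 2, with ESC replicate 2 lowest, and Trp53 and Trp53inp1 had the order 2, 3, 1. The part of fibroblast RNA in the levels of Mdm2, Cdkn1a, Ccng1 and Phlda3 was not tested. Among EpiLCs, replicate 3 was the lowest library in all 9 targets, against 45.2% of all genes tested, and the highest in Trp53, against 31.4%. Replicate 3 was also the lowest EpiLC library in 7 of the 14 fibroblast markers, among them Lox and Col1a2. The sum over 9 naive pluripotency genes was 94.9 TPM there, against 57.0 and 60.2 in EpiLC replicates 1 and 2. Most of that excess lay in Nanog (22.5 TPM, against 7.72 and 5.95) and Dppa3 (25.8 TPM, against 7.43 and 9.91), while Tfcp2l1, Tbx3 and Nr0b1 were lowest in replicate 3. The part of either in the low levels of the 9 targets was not tested.

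**Figure D3:**
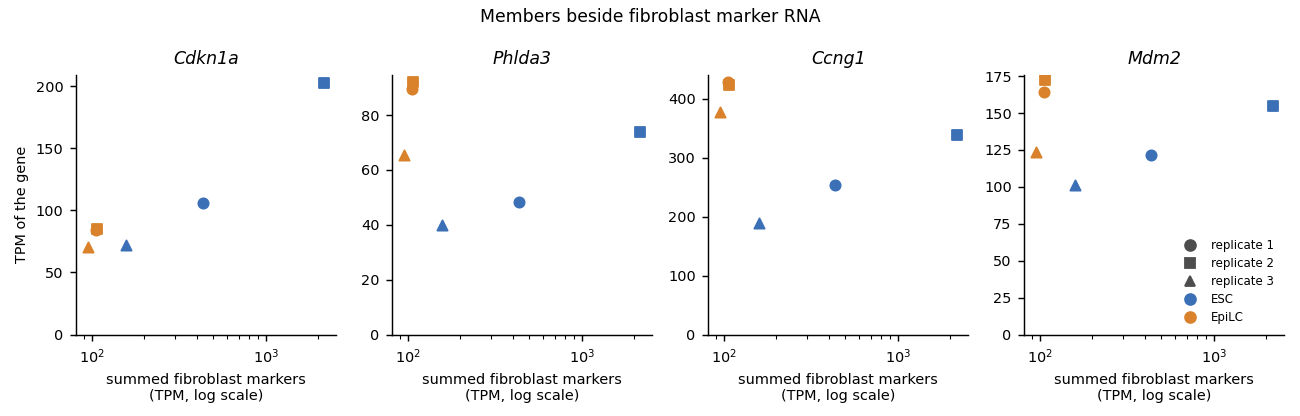
TPM of Cdkn1a, Phlda3, Ccng1 and Mdm2 (linear axis from 0) against the summed TPM of 14 fibroblast markers (log axis) in the 6 libraries, with ESCs in blue and EpiLCs in orange. Among ESCs the 4 genes are ordered as the marker sum (158, 437 and 2183 TPM), and the EpiLC libraries sit at sums from 94.9 to 106 TPM, of which Acta2 and Thy1 make up much.

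By Pearson correlation of log2 CPM over the 6 libraries, among 9197 genes whose mean reached 10 CPM, those whose pattern was most like that of Trp53 were Rpl34-ps1 (r = 0.9948), Mrpl36 (r = 0.9945) and Noc3l (r = 0.9939). Rpl34-ps1 shares its sequence with Rpl34, so its counts are uncertain. For Trp53, 279 genes had r above 0.95. Those most like Cdkn1a were Wisp1 (r = 0.9994), Ap3s1 (r = 0.998) and Sparc (r = 0.9976). Wisp1 and Sparc share with Cdkn1a the high level in ESC replicate 2. Sparc TPM was 216, 584 and 134 in the ESC libraries and between 122 and 152 in EpiLCs, and Wisp1 TPM was 5.2, 27.1 and 1.95 in the ESC libraries and between 1.66 and 2.81 in EpiLCs. Without ESC replicate 2, over 5 libraries, r with Cdkn1a was 0.9964 for Wisp1, 0.9918 for Ap3s1 and 0.9847 for Sparc. These genes were picked for their r over all 6 libraries, so the values over 5 libraries are no separate check. For Cdkn1a, 162 genes had r above 0.95 over the 6 libraries. These correlations describe 6 libraries of 2 groups, and all points of a library share its depth and its fibroblast RNA.

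Ratios of TPM within a library set the inhibitors and targets against Trp53 itself. The 5 ratios were chosen after the values were seen, and 3 libraries against 3 cannot give an exact permutation p below 0.1. The ratio of Mdm2 to Trp53 was 0.274, 0.306 and 0.216 in the ESC libraries and 0.443, 0.481 and 0.310 in the EpiLC libraries, without overlap between groups. The mean ratio was 0.265 ± 0.0458 in ESCs and 0.411 ± 0.0896 in EpiLCs (SD, n = 3 each, two-sided exact permutation p = 0.1 on the log2 scale, 0.167 after Benjamini-Hochberg adjustment over 5 ratios). Mdm2 to Mdm4 was 2.12, 3.13 and 1.22 in ESCs and 3.99, 3.51 and 3.2 in EpiLCs, again without overlap (two-sided exact permutation p = 0.1, adjusted 0.167). Ccng1 to Trp53 was 0.570, 0.670 and 0.403 in ESCs and 1.155, 1.179 and 0.947 in EpiLCs (two-sided exact permutation p = 0.1, adjusted 0.167). Higher values in all EpiLC libraries thus held for these 3 ratios, none of which can pass the test in this design. For Ccng1 to Trp53 this had to hold. Ccng1 was higher and Trp53 lower in every EpiLC library than in every ESC library, so that ratio adds no separate result. Mdm4 to Trp53 and Cdkn1a to Trp53 overlapped between groups (two-sided exact permutation p = 0.6 and 0.7, adjusted 0.7 for both).

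**Figure D4:**
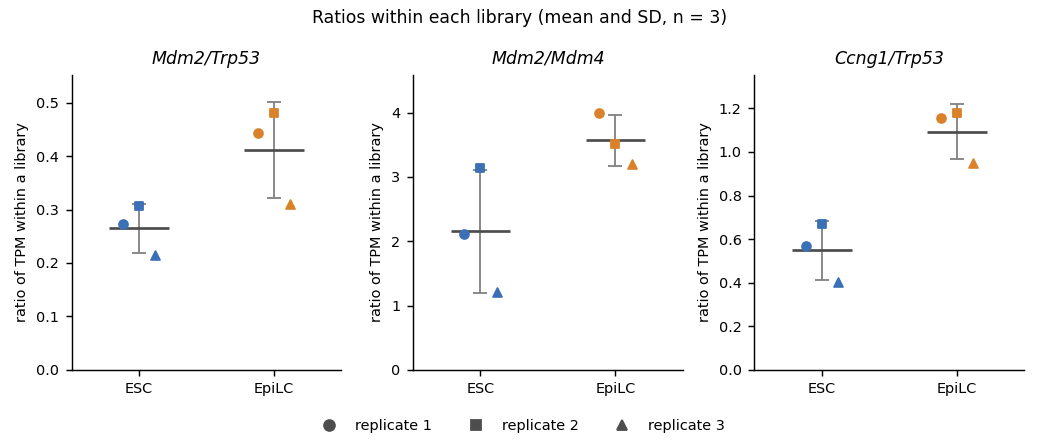
Ratios of TPM within each library (linear axes from 0) for Mdm2 to Trp53, Mdm2 to Mdm4 and Ccng1 to Trp53, with the mean and SD of 3 libraries and the marker shape giving the replicate number. Every EpiLC library is above every ESC library in all 3 panels, by the least for Mdm2 to Trp53 (0.310 in EpiLC replicate 3 against 0.306 in ESC replicate 2).

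Of 39 further direct targets of p53 in a list, all of which were tested, 10 rose and 11 fell in EpiLCs, with a median log2 fold change of -0.02. The 21 called are 53.8% of the list, beside 45.4% of all genes tested (22.6% higher and 22.8% lower). Among 8 targets for arrest and feedback, 2 rose (Zfp365 and Gtse1) and 4 fell (Sfn, Btg2, Gadd45a and Plk3). Among 13 apoptosis targets, 5 rose (Pidd1, Aen, Apaf1, Tnfrsf10b and Bax) and Fas fell. Among 5 DNA repair targets, Ercc5, Rps27l and Polk rose. Among 13 targets for metabolism, secretion and the cell surface, 6 fell, among them Epha2, Gdf15, Ak1, Tigar and Steap3. The largest rises were those of Zfp365, a protein of stalled replication forks (log2 fold change 0.91, edgeR adjusted p = 5.80e-04), Pidd1, which assembles the caspase-2 platform (0.86, edgeR adjusted p = 6.52e-04), the repair nuclease Ercc5 (0.65, edgeR adjusted p = 0.00234) and the nuclease Aen (0.64, edgeR adjusted p = 4.13e-04).

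Fas, a death receptor, was low, at 2.61, 7.8 and 1.69 TPM in the ESC libraries and 1.32, 1.17 and 0.38 in the EpiLC libraries. EpiLC replicate 3 held 8 counts of it, so the filter at 10 counts in every library left Fas out. The log2 fold change of Fas was -2.19 (edgeR adjusted p = 0.0312). Without ESC replicate 2 it was -1.35 and not called (edgeR adjusted p = 0.0539). The call of Fas was also lost without EpiLC replicate 1, 2 or 3 (edgeR adjusted p = 0.0739, 0.0727 and 0.0933). It was lost as well with limma on log2(TPM + 1) and on log2(TPM + 0.1) (limma adjusted p = 0.0604 and 0.0501). Fas followed the order of fibroblast RNA among ESCs, as did 20 of the 39 targets counting Fas, beside 26.1% of all genes tested. Epha2, Sfn, Pidd1 and Aen were among these 20. The part of that RNA in the changes of these targets was not tested. Epha2, a receptor tyrosine kinase, fell from 97.0, 102 and 83.6 TPM to 27.1, 31.9 and 26.3 TPM (log2 fold change -1.78, edgeR adjusted p = 8.2e-05). Gdf15, a secreted stress cytokine, fell from 2.91, 2.25 and 4.45 TPM to 1.01, 1.61 and 1.77 TPM (log2 fold change -1.22, edgeR adjusted p = 0.0256). This call was lost without ESC replicate 3 (edgeR adjusted p = 0.0628) and without EpiLC replicate 1, 2 or 3 (edgeR adjusted p = 0.0996, 0.0704 and 0.0535).

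Of 30 genes that act on p53 or neighbour it, 8 were higher in EpiLCs and 8 lower (53.3% called, beside 45.4% of all genes tested), with a median log2 fold change of -0.01. Among 6 kinases, Atm, Atr, Chek1 and Prkdc fell, and Chek2 and Hipk2 did not pass the test. Prkdc, the DNA-dependent protein kinase, had the largest of these falls (log2 fold change -1.04, edgeR adjusted p = 0.0041), followed by the checkpoint kinase Atr (-0.82, edgeR adjusted p = 0.0119; 0.0509 without EpiLC replicate 1). Among 6 ubiquitin ligases and proteases, Trim24, Usp10 and Cop1 rose and Huwe1 and Usp7 fell. Trim24, a ligase for p53, changed by 0.42 on the log2 scale (edgeR adjusted p = 0.00364) and Huwe1, also a ligase for p53, by -0.62 (edgeR adjusted p = 0.0262; 0.0538, 0.0923 and 0.0919 without ESC replicate 1, EpiLC replicate 1 and EpiLC replicate 3). Among 6 enzymes that acetylate, deacetylate or methylate p53, Kat5 and Kmt5a rose and the deacetylase Sirt1 fell (-0.49, edgeR adjusted p = 0.00149). Among 7 cofactors, Trp53bp2 (0.69, edgeR adjusted p = 5.84e-04), Trp53bp1 (0.53, edgeR adjusted p = 0.00999) and Pml (0.49, edgeR adjusted p = 0.0223) rose and Jmy fell. The call of Pml was lost without ESC replicate 1, EpiLC replicate 1 or EpiLC replicate 2 (edgeR adjusted p = 0.081, 0.0524 and 0.0535).

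Among relatives of the 10 genes, Phlda2, Zmat4, Trp73 and Sesn3 had fold changes larger in size than any of the 10. Of 10 such relatives 9 were tested, of which 2 rose and 3 fell (55.6% called, beside 45.4% of all genes tested). Trp73, which encodes the p53 relative p73, rose from 3.16, 2.5 and 3.64 TPM in the ESC libraries to 8.51, 8.81 and 8.13 in the EpiLC libraries (log2 fold change 1.40, edgeR adjusted p = 8.71e-04). Trp73 was far below Trp53 in every library. Trp63 was not tested, at 0.11, 0.11 and 0.05 TPM in ESCs and listed at 0 in all EpiLC libraries. Phlda2, a relative of Phlda3, fell (-2.08, edgeR adjusted p = 9.71e-04), as did Zmat4 (-1.50, edgeR adjusted p = 0.00724) and Ccng2 (-0.74, edgeR adjusted p = 0.00638). In the same edgeR fit Phlda3 and Zmat3 were not called and Ccng1 rose, although DESeq2 called Phlda3.

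Of 10 cell cycle genes described as repressed through p21 and the DREAM complex, 1 rose and 3 fell (40% called, beside 45.4% of all genes tested), and none changed by more than 0.43 on the log2 scale. Aurkb rose (0.25, edgeR adjusted p = 0.0165), and Ccnb2 (-0.43, edgeR adjusted p = 0.0169), Ccnb1 (-0.25, edgeR adjusted p = 0.0373) and Birc5 (-0.17, edgeR adjusted p = 0.043) fell. Each of these 4 calls was lost without ESC replicate 1, without EpiLC replicate 1 and without EpiLC replicate 2. Without EpiLC replicate 1, the edgeR adjusted p was 0.0599 for Aurkb, 0.0622 for Ccnb2, 0.11 for Ccnb1 and 0.125 for Birc5.

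**Figure D5:**
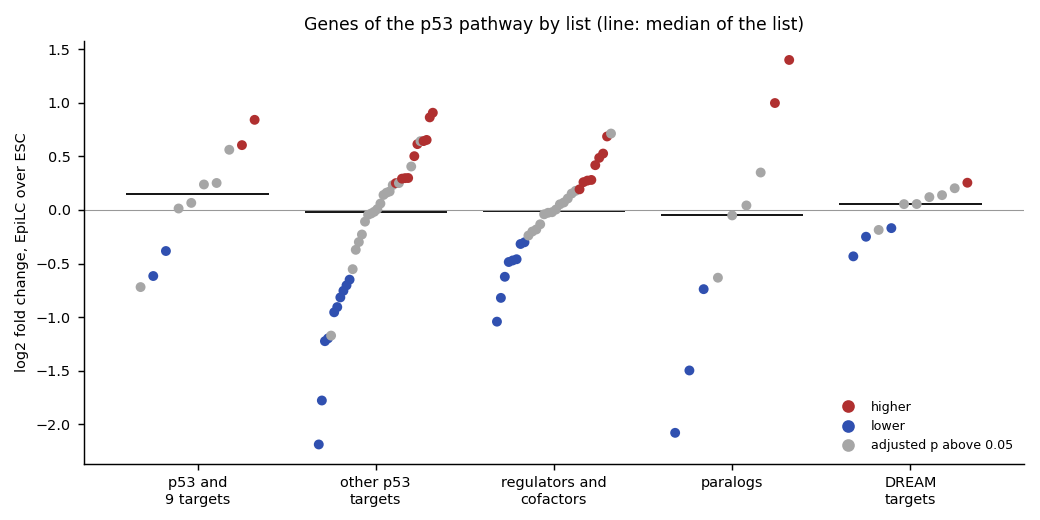
Log2 fold change from ESC to EpiLC of each gene in 5 lists, p53 and 9 targets, other p53 targets, regulators and cofactors, paralogs, and DREAM targets, sorted within a list. Points are red where higher, blue where lower and grey where the edgeR adjusted p is above 0.05, and lines give the medians, which lie between -0.05 and 0.15. Of the other p53 targets, 1 gene is not drawn but is counted in the median. Changes of p53 and its 9 targets span -0.72 to 0.84, and the lowest point drawn is Fas at -2.19.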

How the data were processed

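Libraries were made with the KAPA mRNA HyperPrep kit and sequenced as stranded single-end reads of 76 nt. The authors trimmed reads with cutadapt 1.16, aligned them with STAR 2.5.2a and quantified mm10 RefSeq genes with RSEM 1.3.0. The authors deposited RSEM expected counts, which divide reads shared between genes, and TPM, scaled for transcript length and library. Their notes also name DESeq2 1.16.1.

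Expected counts were rounded to whole numbers. Genes were filtered with filterByExpr (14468 of 24736 kept), normalized by TMM and compared by the quasi-likelihood test of edgeR 4.0.16 in R 4.3.3, without a block. p-values were adjusted by Benjamini-Hochberg over all genes tested (threshold 0.05). They weigh the difference between groups against the spread between these libraries, as estimated by edgeR. Alternatives were upper-quartile normalization, DESeq2 1.42.0, other filters, a replicate block, limma 3.58.1 on log2(TPM + 1) and log2(TPM + 0.1), and leaving out each library.

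The genes and lists were chosen by name, with earlier results of these data known. In other lists, the genes named with values were the 4 largest rises and 4 largest falls among called genes whose mean reached 1 CPM, with Trp63, Trp73 and Wrap53. Of these, 1 target is not reported here. Ratios, the search with 1 letter outside the pattern, the names of other called genes, and Cdkn2a, Rpl5, Rpl11 and Rpl23 were chosen after values were seen. The labels give 48 h for EpiLCs, while the culture methods of the study also describe a longer time. Gene positions and promoters are from RefSeq on GRCm38.p6.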

Additional observations from a re-analysis of the deposited data

How the results depend on the processing

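Trp53 and Sesn1 kept their calls under all 13 alternatives, and Mdm2 and Zmat3 stayed uncalled under all 13. The log2 fold change of Sesn2 changed sign without ESC replicate 2 (-0.065) and without EpiLC replicate 1 (-0.036), in a range from -0.065 to 0.082 over the libraries left out. With upper-quartile normalization, the replicate block, limma on log2(TPM + 1) or limma on log2(TPM + 0.1), 1 of the 10 genes was called lower, since Mdm4 was lost. DREAM targets called higher were 2 with either limma fit, and those called lower were 1 with upper-quartile normalization or without the filter. Leaving out each library in turn gave between 2144 and 3572 genes higher and between 2100 and 3609 lower over all genes tested. The 10 genes then gave 1 to 3 higher and 1 to 3 lower, other p53 targets 7 to 11 higher and 5 to 11 lower, regulators 4 to 8 higher and 4 to 11 lower, paralogs 2 to 3 higher and 3 to 4 lower, and DREAM targets 0 to 1 higher and 0 to 3 lower. Without EpiLC replicate 1 the counts over all genes were lowest. The cause of these changes was not tested. The pair of half-sites at most 13 bases apart, found in 1 gene, was found in 0 with no spacer and in 2 with no spacer and 1 letter outside the pattern. The ratio of Cdkn1a to Trp53 changed sign without ESC replicate 2 (0.14 on the log2 scale) and that of Mdm4 to Trp53 without ESC replicate 3 (0.02).

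The labels number both groups from 1 to 3 but do not say that a number marks a shared day or culture. Deviations of libraries with the same number correlated at 0.00668, 0.186 and 0.17, and for 2 of the 3 numbers each library correlated best with its own number, with a mean of 0.121 for the same number and -0.0617 for others. Deviations are taken from the mean of the group, so a positive mean for the same number brings a negative mean for others. The negative mean is therefore not separate evidence. The correlations for the same number are a hint of pairing from the data, but 1 pair lay below 0.1. The numbers were not taken to pair the samples. With the replicate block, 2979 of all genes tested were higher and 3106 lower, and of the 10 genes 3 were higher and 1 was lower, with Mdm4 at an edgeR adjusted p of 0.0678 and Phlda3 at 0.02.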

Other observations

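Proteins that bind Mdm2 and free p53 from it were among the regulators listed. With all 6 libraries edgeR called none of the 4, beside 45.4% of all genes tested, and 4 genes are too few to compare with that share. Rpl5 and Rpl23 had an unadjusted p under 0.05. Cdkn2a, whose Arf product binds Mdm2, was chosen for description after its values were seen. Cdkn2a TPM in replicates 1, 2 and 3 was 12.4, 36.9 and 8.81 for ESCs and 34.4, 34.4 and 25.3 for EpiLCs. ESC replicate 2 was above all EpiLC libraries and the other ESC libraries were below all of them. Its log2 fold change was 0.71 (SE 0.49, 95% interval -0.45 to 1.87, edgeR adjusted p = 0.267). Without ESC replicate 2 it was 1.54 (SE 0.22, 95% interval 1.01 to 2.06) and passed the test (edgeR adjusted p = 0.00218), so that library decided the call. The order of its ESC libraries was that of fibroblast RNA, whose part was not tested. The table does not separate the Arf transcript from that of p16, which shares exons with it. The ribosomal proteins Rpl5, Rpl11 and Rpl23, which bind Mdm2 when ribosome assembly stalls, had log2 fold changes of -0.20, -0.04 and -0.18 and edgeR adjusted p of 0.0793, 0.558 and 0.0814.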
